A study of Drosophila melanogaster with 8 samples.

Results

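The transcripts described here encode 8 proteins of nuclear import in Drosophila melanogaster: the importin alphas Pen, Kap-alpha1 and Kap-alpha3, the importin beta Fs(2)Ket, the GTPase Ran with its duplicate Ran-like, and the transport factor Ntf-2 with its duplicate Ntf-2r. They were chosen by gene name, and all 8 were found among the 12051 genes of the deposited table. RNA was taken from testis extract of wild-type flies aged 2 to 7 days, by precipitating ribosomes with antibodies to the ribosomal protein eRpL22-like or to its paralogue eRpL22. The question of the study is whether ribosomes with one or the other paralogue hold different RNAs. Values were at hand for 4 eRpL22-like pulldowns (replicates 1 to 4) and 3 eRpL22 pulldowns (replicates 1 to 3). The fourth labelled eRpL22 replicate was not analysed here. Neither input RNA nor a mock precipitate is among the labels, so a level in a pulldown is not an enrichment over the testis lysate.

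In classical import, an importin alpha binds the nuclear localization signal of a cargo protein and is itself carried through the nuclear pore by importin beta. Ran loaded with GTP opens this complex inside the nucleus, and NTF2 brings Ran bound to GDP back from the cytoplasm. Importin alphas of the Pen type (importin alpha2) are needed for the making of sperm and eggs in Drosophila. Ran-like and Ntf-2r are copies of Ran and Ntf-2 that arose through an RNA intermediate and are known for expression in the testis.

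The listed genes held 22448043 to 25159184 reads in the eRpL22-like libraries and 15971685 to 26346787 in the eRpL22 libraries, recovered as whole numbers from the deposited values. Listed genes with any read numbered 9128, 10640, 9037 and 10381 in eRpL22-like replicates 1 to 4. In eRpL22 replicates 1 to 3 they numbered 9953, 9893 and 9806, so eRpL22-like replicates 1 and 3 had the fewest. Levels are given as the authors' normalized reads, in which each library is divided by a scaling factor, so that 1 read was worth 0.747 to 1.50 normalized reads. Over the 10 genes listed as male germline markers, the summed share was 1.93% to 2.13% of reads in eRpL22-like libraries and 2.07% to 2.41% in eRpL22 libraries, with none of them at 0 throughout. Of the 10, 8 had negative log2 fold changes (median -0.26), against a median of -0.03 over all genes tested. At an adjusted p under 0.05 limma called 0 of the 10 (0.0% of all genes) and DESeq2 called 1 (1.98% of all genes). An unadjusted limma p under 0.05 was found for 3 (dj, Mst87F and S-Lap1), against 4.11% of all genes. Library values did not overlap between pulldowns for 1, dj, against 5.14% of all genes. The largest differences lay in low genes and went both ways, with nos at 0.756 normalized reads with eRpL22-like and 52.4 with eRpL22, and can at 878 with eRpL22-like and 63.7 with eRpL22. Markers of other tissues set 2 libraries apart. The first, eRpL22 replicate 1, held 3092 normalized reads of the eggshell gene Cp36 and 789 of Cp38, defining markers of ovarian follicle cells, whereas no other library had more than 1 read of either. The summed share of the 4 ovary markers found in the table ranged from 0.0% to 0.00249% in eRpL22-like libraries and from 9.49e-05% to 0.0165% in eRpL22 libraries, and the second-highest share, 0.00678% in eRpL22 replicate 2, came from the yolk protein gene Yp3. Muscle markers (6 genes) took 0.0222% to 0.129% of reads with eRpL22-like and 0.0146% to 0.0259% with eRpL22. The highest of these shares set apart eRpL22-like replicate 4, where the next eRpL22-like library had 0.0469%. It came mainly from Mlc2 (11370 normalized reads), wupA (5448) and Tm2 (4496), each highest in that library. The other muscle markers, Mhc, up and Act57B, were higher in eRpL22-like replicate 1, with Act57B at 6894 there and 2408 in eRpL22-like replicate 4. The high share was thus not shared by all muscle markers. Accessory gland markers (6 genes) took 0.130% to 0.222% of reads with eRpL22-like and 0.130% to 0.212% with eRpL22. Cyst and hub cell markers (5 genes) took 0.00890% to 0.0126% with eRpL22-like and 0.00366% to 0.0157% with eRpL22. The part of these other cell types in the results was not tested, and values without eRpL22 replicate 1 and without eRpL22-like replicate 4 are given for all 8 genes. In such bulk samples, fewer cells of a type and less RNA per cell cannot be told apart.

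All 8 nuclear import transcripts were present in both pulldowns and none passed the test between them. Pen, the importin alpha2 gene, ranked between 9 and 23 by number of reads within each library, and it had more reads than the other 7 genes together in all 7 libraries. Means of Fs(2)Ket, Ntf-2, Ntf-2r, Ran-like and Ran were higher with eRpL22-like, and means of Pen, Kap-alpha1 and Kap-alpha3 were lower, but library values overlapped between the pulldowns for each of the 8. Limma on log2(normalized reads + 1), with Benjamini-Hochberg adjustment over 11174 genes and a threshold of 0.05, called 0 of the 8 genes and 0 of all genes (0.0%). At an unadjusted p under 0.05 limma had 0 of the 8 genes and 459 of all (4.11%). At an adjusted p under 0.05, edgeR on the recovered reads called 0 of 9516 genes (0.0%). At the same adjusted threshold DESeq2 on those reads called 0 of the 8 and 172 of 8688 genes (1.98%). Fs(2)Ket had an unadjusted DESeq2 p of 0.0377, where 962 of 12051 genes had one under 0.05. Library values did not overlap for 0 of the 8 genes, against 574 of all 11174 (5.14%). The log2 fold change, given throughout as eRpL22-like over eRpL22, was positive for 5 of the 8 with a median of 0.13, and positive for 48.8% of all genes with a median of -0.03. Because the labels do not tie each replicate to its own batch of flies, p-values rest on library-to-library spread, and that spread may be technical. In limma the spread of a gene is combined with that of genes of like level.

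**Figure D1:**
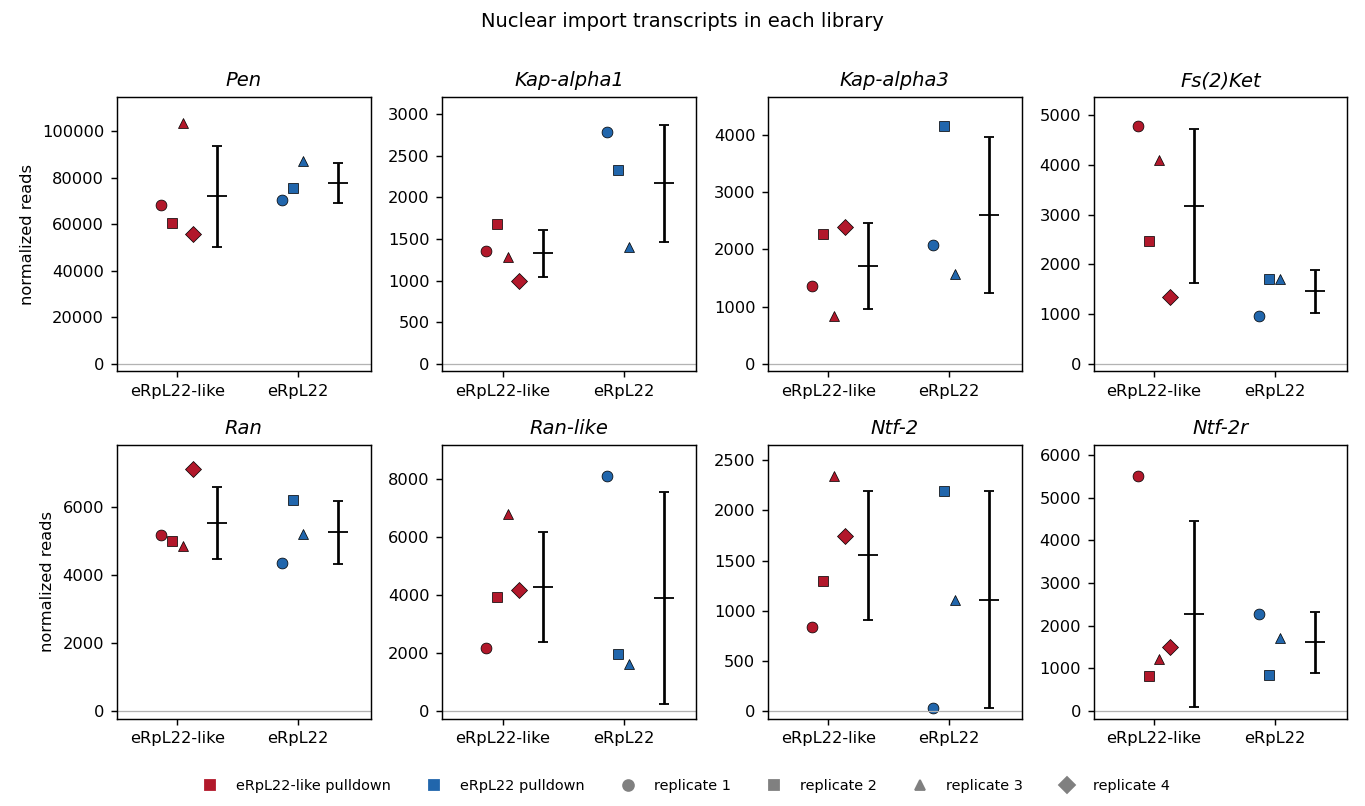
Normalized reads of the 8 nuclear import genes in each library, with 1 panel and 1 linear scale per gene. Marker shapes give the replicate number, and the bar with whiskers gives the mean and SD of the 4 eRpL22-like or 3 eRpL22 libraries. Ran-like was highest (8118) and Ntf-2 lowest (35.9) in eRpL22 replicate 1, and the values of the 2 pulldowns overlap in every panel.

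Among the cargo receptors, Pen (FBgn0267727) had 68122, 60418, 103569 and 56022 normalized reads in eRpL22-like replicates 1 to 4, and 70272, 75533 and 87132 in eRpL22 replicates 1 to 3. The eRpL22-like libraries spanned the wider range, with 1 above and 3 below all eRpL22 libraries. The mean was 72033 ± 21611 (SD, n = 4) with eRpL22-like and 77646 ± 8627 (SD, n = 3) with eRpL22. Its log2 fold change of -0.15 had an SE of 0.15 and a limma adjusted p of 0.945. The 95% interval of the fold, 0.733 to 1.12, is the narrowest among the 8 genes and leaves out a 2-fold change in either direction. Its width also draws on genes of like level. Ran had a smaller SD of log2 values within pulldowns (0.26, against 0.32 for Pen) but a larger SE (0.37). Without eRpL22 replicate 1 the log2 fold change of Pen was -0.21. Without eRpL22-like replicate 3 it was -0.33 (unadjusted limma p 0.0351, adjusted p 0.880), where 391 of 11174 genes had an unadjusted p under 0.05. By number of reads Pen ranked 15 among all 12051 genes, and of all listed reads 0.355% ± 0.0939 (SD, n = 4) were its own in eRpL22-like libraries and 0.362% ± 0.0623 (SD, n = 3) in eRpL22 libraries.

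Kap-alpha1 (FBgn0024889), the gene of another importin alpha, had 1354, 1679, 1277 and 995.6 normalized reads in eRpL22-like replicates 1 to 4 and 2784, 2324 and 1401 in eRpL22 replicates 1 to 3. Only eRpL22 replicate 3 lay within the eRpL22-like range. The mean was 1326 ± 281 (SD, n = 4) with eRpL22-like and 2170 ± 704 (SD, n = 3) with eRpL22, a 1.64-fold lower mean. The log2 fold change of -0.68 (SE 0.63) had an unadjusted limma p of 0.292 and an adjusted p of 0.945, and it was -0.47 without eRpL22 replicate 1.

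Kap-alpha3 (FBgn0027338), the third importin alpha gene, had 1354, 2266, 827.9 and 2396 normalized reads in eRpL22-like replicates 1 to 4 and 2072, 4154 and 1577 in eRpL22 replicates 1 to 3. The high mean with eRpL22 came from replicate 2, and the other eRpL22 libraries lay inside the eRpL22-like range. Limma gave a log2 fold change of -0.60 (SE 0.61) at an unadjusted p of 0.333 and an adjusted p of 0.945. The estimate was -0.20 without eRpL22 replicate 2, -0.29 without eRpL22-like replicate 3 and -0.70 without eRpL22 replicate 1.

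Fs(2)Ket (FBgn0262743), the importin beta gene, had the largest mean difference in favour of eRpL22-like among the 8 genes when measured on mean normalized reads. It had 4775, 2473, 4095 and 1351 normalized reads in eRpL22-like replicates 1 to 4 and 962.8, 1704 and 1711 in eRpL22 replicates 1 to 3. Of the eRpL22-like libraries, 3 lay above every eRpL22 library and replicate 4 lay among them. The mean was 3173 ± 1552 (SD, n = 4) with eRpL22-like and 1459 ± 430 (SD, n = 3) with eRpL22, and the log2 fold change was 1.01 (SE 0.59, 95% interval -0.18 to 2.20). The unadjusted limma p was 0.0930 and the adjusted p 0.945. In the authors' deposited table its log2 fold change was 1.12 with a p of 0.0378 and an adjusted p of 0.838; that table had 5.53% of all genes at an unadjusted p under 0.05. Across the alternatives tried, the unadjusted p of Fs(2)Ket ranged from 0.0203 to 0.231 and the adjusted p from 0.434 to 1.00. The lowest unadjusted p was that of limma without eRpL22-like replicate 4 (log2 fold change 1.37, adjusted p 0.888). In that setting 379 of 11174 genes had an unadjusted p under 0.05. Without eRpL22 replicate 1 the log2 fold change of Fs(2)Ket was 0.74 (limma adjusted p = 0.919).

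Ran (FBgn0020255), which encodes the GTPase that sets the direction of transport, had the smallest SD of log2 values within pulldowns among the 8 genes. It had 5155, 4990, 4846 and 7100 normalized reads in eRpL22-like replicates 1 to 4 and 4337, 6204 and 5191 in eRpL22 replicates 1 to 3. The eRpL22-like replicate 4 was higher than all other libraries, and the rest were mixed. The mean was 5523 ± 1059 (SD, n = 4) with eRpL22-like and 5244 ± 935 (SD, n = 3) with eRpL22, with a log2 fold change of 0.07 (SE 0.37, limma adjusted p = 0.986). Its direction turned without eRpL22-like replicate 4 (-0.05) and without eRpL22 replicate 1 (-0.06). The SD of log2 values within pulldowns was 0.26 for Ran, and 96.9% of the 3206 genes with means of 1000 to under 10000 normalized reads had a larger one. Ran had a mean of 5403 over all libraries, and the part of level in this share was not tested.

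Ran-like (FBgn0036497), the duplicate of Ran, varied more than Ran. It had 2191, 3932, 6799 and 4187 normalized reads in eRpL22-like replicates 1 to 4 and 8118, 1988 and 1628 in eRpL22 replicates 1 to 3. The highest and the lowest value of all 7 libraries both came from the eRpL22 pulldown, and its highest was in the library with the eggshell transcripts. The mean was 4277 ± 1901 (SD, n = 4) with eRpL22-like and 3911 ± 3648 (SD, n = 3) with eRpL22, with a log2 fold change of 0.41 (SE 0.52, limma adjusted p = 0.945). Without eRpL22 replicate 1 the 4 eRpL22-like libraries all lay above the other eRpL22 libraries. The ratio of means was then 2.37 and the log2 fold change 1.14, with an unadjusted limma p of 0.0475 and an adjusted p of 0.919. Leaving out that library, 12.4% of all genes had values that did not overlap and 3.79% had an unadjusted p under 0.05. With another library left out instead, the log2 fold change was -0.02 (no eRpL22 replicate 3), 0.12 (no eRpL22 replicate 2) 0.15 (no eRpL22-like replicate 3) or 0.70 (no eRpL22-like replicate 1), and it was 0.14 in edgeR.

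Ntf-2 (FBgn0031145), whose product returns Ran to the nucleus, was nearly missing from 1 library. It had 833.3, 1293, 2342 and 1742 normalized reads in eRpL22-like replicates 1 to 4 and 35.9, 2192 and 1107 in eRpL22 replicates 1 to 3. The low value was 24 reads in eRpL22 replicate 1, where the other 6 libraries had 915 to 2506 reads. The mean was 1552 ± 644 (SD, n = 4) with eRpL22-like and 1112 ± 1078 (SD, n = 3) with eRpL22. On the log2 scale the fold change was 1.69 (SE 1.00, limma adjusted p = 0.945, unadjusted p 0.1003), against 0.48 in edgeR, in DESeq2 and in the authors' deposited table. The estimate was 2.84 without eRpL22 replicate 2 and -0.11 without eRpL22 replicate 1, with means of 1552 with eRpL22-like and 1650 in the other eRpL22 libraries. Only 6.71% of the 3206 genes of like level had a larger SD within pulldowns.

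Ntf-2r (FBgn0032680), the duplicate of Ntf-2, had 5505, 829.6, 1232 and 1494 normalized reads in eRpL22-like replicates 1 to 4 and 2273, 856.6 and 1709 in eRpL22 replicates 1 to 3. A single library, eRpL22-like replicate 1, was far above the rest, and the lowest library of each pulldown was near the same level. The mean was 2265 ± 2177 (SD, n = 4) with eRpL22-like and 1613 ± 713 (SD, n = 3) with eRpL22, with a log2 fold change of 0.19 (SE 0.69, limma adjusted p = 0.979). Without eRpL22-like replicate 1 it was -0.37, without eRpL22 replicate 2 it was -0.21, and without eRpL22 replicate 1 it was 0.49, as in edgeR with all libraries.

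**Figure D2:**
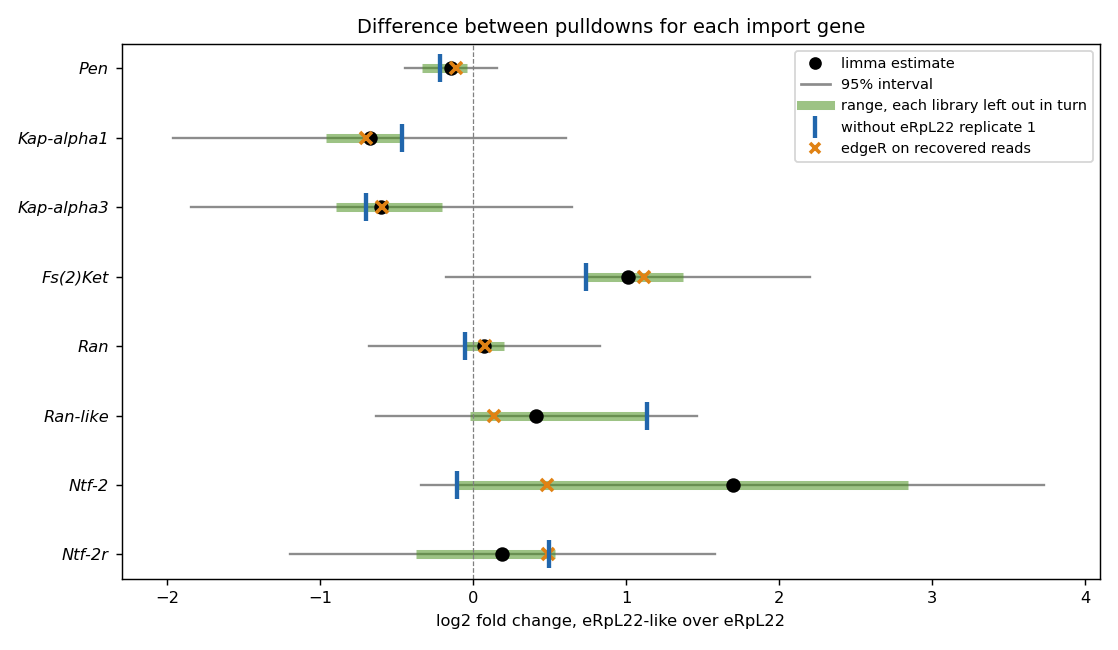
Log2 fold change of each nuclear import gene, eRpL22-like over eRpL22. Black points give the limma estimate, grey lines its 95% interval, green bars the range when each library was left out in turn, blue ticks the value without eRpL22 replicate 1, and orange crosses the edgeR estimate. All 8 intervals include 0, and the green bars of Ran, Ran-like, Ntf-2 and Ntf-2r cross it.

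The highest and lowest libraries differed from gene to gene. The highest value was in eRpL22-like replicate 3 for Pen and Ntf-2, in eRpL22-like replicate 1 for Fs(2)Ket and Ntf-2r, in eRpL22 replicate 1 for Kap-alpha1 and Ran-like, in eRpL22 replicate 2 for Kap-alpha3 and in eRpL22-like replicate 4 for Ran. For 3 of the 8 genes, Fs(2)Ket, Ran and Ntf-2, the lowest value was in eRpL22 replicate 1. Without eRpL22-like replicate 4, the library with the most muscle marker reads, the log2 fold change was -0.04 for Pen, -0.55 for Kap-alpha1, -0.81 for Kap-alpha3, 1.37 for Fs(2)Ket, -0.05 for Ran, 0.39 for Ran-like, 1.61 for Ntf-2 and 0.25 for Ntf-2r, and limma called 0 genes. Across all 7 libraries the highest value was 1.64 times the lowest for Ran and 1.85 times for Pen, 2.80 times for Kap-alpha1, 4.96 times for Fs(2)Ket, 4.99 times for Ran-like, 5.02 times for Kap-alpha3, 6.64 times for Ntf-2r and 65.3 times for Ntf-2. The 95% interval of the fold reached from 0.644-fold to 2.75-fold for Ran-like and from 0.435-fold to 2.99-fold for Ntf-2r. For Ntf-2 it reached from 0.788-fold to 13.3-fold. These widths also draw on genes of like level. All 3 intervals are narrower than the spread of the gene's own 7 libraries would give, above all for Ntf-2, whose SD of log2 values within pulldowns was 2.06.

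Within a library, the reads of a gene relative to its paralogue do not depend on how libraries were scaled. These ratios are of reads per gene, not corrected for length, so they compare libraries and not the number of molecules of the 2 genes. For each of the 5 ratios compared, library values overlapped between the pulldowns. The lowest unadjusted p of an exact two-sided permutation test was 0.257, for Pen to Kap-alpha1. With 3 against 4 libraries this test allows no p below 0.0286. After adjustment over the 5 ratios, a single ratio at that limit would still miss the threshold used for genes. With a library left out, the lowest possible p itself lies above that threshold. The permutation tests therefore could not call a single differing ratio, and the values are given as description. Ran-like had 0.425, 0.788, 1.40 and 0.590 reads per read of Ran in eRpL22-like replicates 1 to 4 and 1.87, 0.321 and 0.314 in eRpL22 replicates 1 to 3. Ran thus took more of the pair's reads than Ran-like in 5 of 7 libraries, the exceptions being eRpL22-like replicate 3 and eRpL22 replicate 1. The mean log2 ratio was -0.46 ± 0.73 (SD, n = 4) with eRpL22-like and -0.80 ± 1.48 (SD, n = 3) with eRpL22 (exact permutation p = 0.686, adjusted p = 0.857 over the 5 ratios). The difference of 0.34 became 1.19 without eRpL22 replicate 1 (exact permutation p = 0.133) and turned to -0.08 without eRpL22 replicate 2 and -0.09 without eRpL22 replicate 3.

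Ntf-2r had 6.61, 0.641, 0.526 and 0.858 reads per read of Ntf-2 in eRpL22-like replicates 1 to 4 and 63.3, 0.391 and 1.54 in eRpL22 replicates 1 to 3. Which gene of the pair took more reads changed from library to library in both pulldowns. The mean log2 ratio was 0.23 ± 1.68 (SD, n = 4) with eRpL22-like and 1.74 ± 3.78 (SD, n = 3) with eRpL22, and the difference of -1.51 turned to 0.60 without eRpL22 replicate 1 (exact permutation p = 0.543 with all libraries, adjusted p = 0.857). Reads of a pair were also summed. Ran and Ran-like together had 7346 to 11645 normalized reads with eRpL22-like and 6818 to 12455 with eRpL22 (exact permutation p = 0.686), and Ntf-2 and Ntf-2r together had 2123 to 6338 with eRpL22-like and 2308 to 3049 with eRpL22 (exact permutation p = 0.400). The highest library was 1.83 times the lowest for the summed Ran pair, against 1.64 times for Ran alone, and 2.99 times for the summed Ntf-2 pair.

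Duplicates of this kind can be similar enough to share reads, and how the authors assigned such reads is not given in the sources used here, so the values of both pairs are uncertain to that extent. In eRpL22 replicate 1 the table holds 24 reads for Ntf-2 and 1520 for Ntf-2r. Reads of Ntf-2r counted under Ntf-2 thus numbered at most 24 in that library, 1.55% of the pair's reads (95% exact Clopper-Pearson interval 0.998% to 2.30%, counting error only). No such low library exists for Ran, Ran-like or Ntf-2r. Their lowest shares of the pair's reads were 34.8% for Ran, 23.9% for Ran-like and 28.1% for Ntf-2r, so the table sets no close limit on reads passing to them.

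**Figure D3:**
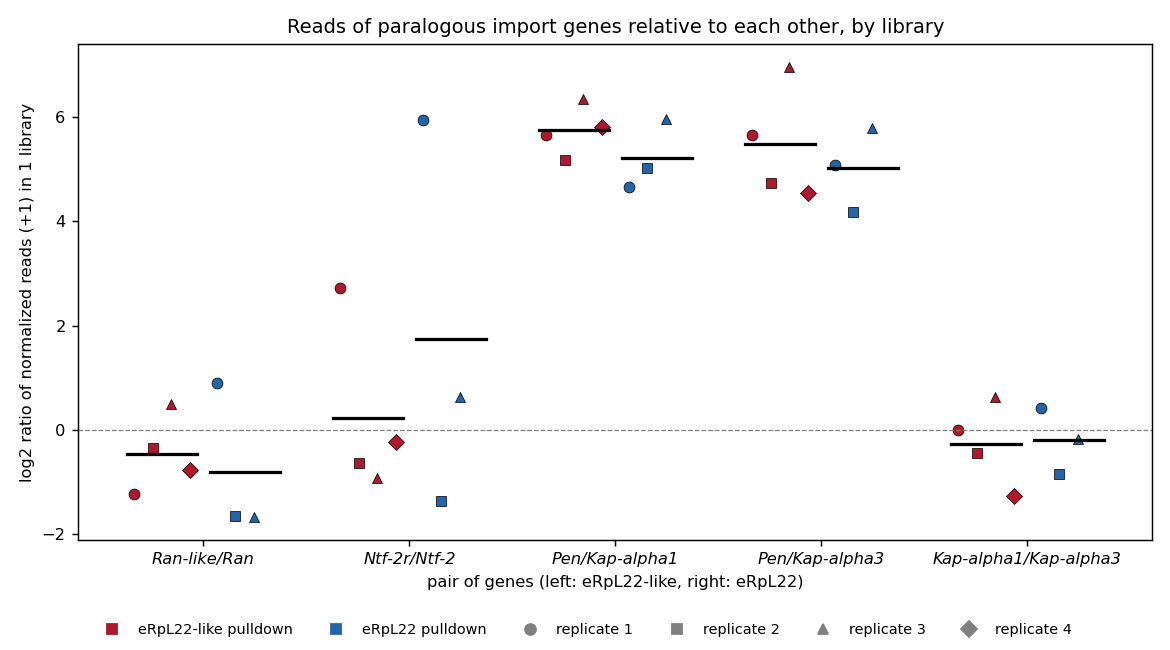
Log2 ratio of the normalized reads (+ 1) of 2 genes within each library, for the 5 ratios compared. Red points on the left of each pair are eRpL22-like libraries, blue points on the right eRpL22 libraries, shapes give the replicate number and horizontal bars the mean. Ratios of Pen to either other importin alpha lie above 4 in every library, and the Ntf-2r to Ntf-2 ratio of eRpL22 replicate 1 stands at 5.95.

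Pen took most of the importin alpha reads in both pulldowns. Its reads exceeded those of Kap-alpha1 by 36.0 to 81.1 times in eRpL22-like libraries and by 25.2 to 62.2 times in eRpL22 libraries. Those of Kap-alpha3 were exceeded by 23.4 to 125 times with eRpL22-like and by 18.2 to 55.3 times with eRpL22. The mean log2 ratio of Pen to Kap-alpha1 was 5.74 ± 0.48 (SD, n = 4) with eRpL22-like and 5.21 ± 0.67 (SD, n = 3) with eRpL22, a difference of 0.53 (exact permutation p = 0.257, adjusted p = 0.857). For Pen to Kap-alpha3 the difference was 0.46 (exact permutation p = 0.600, adjusted p = 0.857), and it turned to -0.04 without eRpL22-like replicate 3. For Kap-alpha1 to Kap-alpha3 it was -0.07 (exact permutation p = 0.886, adjusted p = 0.886), and it turned to 0.24 without eRpL22 replicate 1 and to 0.26 without eRpL22-like replicate 4. The 3 importin alphas together had 59414 to 105674 normalized reads with eRpL22-like and 75128 to 90110 with eRpL22.

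Ordered by mean normalized reads, without correction for length, the genes were Pen, Ran, Ran-like, Fs(2)Ket, Kap-alpha3, Ntf-2r, Kap-alpha1 and Ntf-2. Only the first step was clear of the spread, since Pen exceeded Ran in 7 of 7 libraries. Ran exceeded Ran-like in 5, Ran-like exceeded Fs(2)Ket in 5, Fs(2)Ket exceeded Kap-alpha3 in 4, Kap-alpha3 exceeded Ntf-2r in 3, Ntf-2r exceeded Kap-alpha1 in 3 and Kap-alpha1 exceeded Ntf-2 in 5 of the 7 libraries. The 7 genes other than Pen together took 0.0982% ± 0.00484 (SD, n = 4) of reads with eRpL22-like and 0.0837% ± 0.0141 (SD, n = 3) with eRpL22.

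Other genes of nuclear transport, taken from 4 lists, also gave no call. Of 61 such genes in the table, 60 were tested, and limma called 0 of them, with 30 higher and 30 lower means on the log2 scale and a median log2 fold change of 0.02. Unadjusted limma p-values were under 0.05 for 2 of the 60, against 4.11% of all genes, and library values did not overlap for 1 of the 60, against 5.14% of all genes. None of the 60 was called by DESeq2, by edgeR or in the authors' deposited results. Of all genes, limma and edgeR called 0.0%, DESeq2 called 1.98% of 8688, and the authors' results called 0.174%. The authors' results also called 0 of the 8. With shares this low over all genes, the absence of calls does not set the transport genes apart from other genes.

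The importin beta family of carriers divided into 8 positive and 5 negative log2 fold changes among 13 tested (median 0.11). Karybeta3, the Drosophila importin-5, had 5591 ± 1099 normalized reads (SD, n = 4) with eRpL22-like and 7313 ± 2074 (SD, n = 3) with eRpL22, and Ranbp9, an importin-9, had 1855 ± 1025 with eRpL22-like and 2507 ± 2687 with eRpL22. The log2 fold change was -0.37 for Karybeta3 and -0.11 for Ranbp9. Of the 5 genes acting on Ran's cycle, 3 were positive and 2 negative (median 0.16). RanBP3, which encodes a Ran-binding protein, had 2723 ± 1473 normalized reads (SD, n = 4) with eRpL22-like and 2860 ± 1350 (SD, n = 3) with eRpL22. Nup358, a pore protein that binds Ran, had 1539 ± 817 with eRpL22-like and 1925 ± 1993 with eRpL22, and its log2 fold change of 0.85 was opposite in sign to the difference of these means.

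Nucleoporins, the building blocks of the pore, were 15 positive and 14 negative among 29 tested (median 0.04). Nup58, of the central channel, had 3102 ± 1302 normalized reads (SD, n = 4) with eRpL22-like and 1894 ± 144 (SD, n = 3) with eRpL22, and Sec13, shared by the pore and the COPII vesicle coat, had 2481 ± 1520 with eRpL22-like and 2396 ± 722 with eRpL22, means opposite in sign to its log2 fold change of -0.45. Of 13 factors of mRNA export tested, 9 had negative log2 fold changes (median -0.60). Ref1, an export adaptor, had 2893 ± 401 normalized reads (SD, n = 4) with eRpL22-like and 2113 ± 979 (SD, n = 3) with eRpL22, and nxf4, of the nuclear export factor family, had 1103 ± 573 with eRpL22-like and 1776 ± 315 with eRpL22.

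The genes whose profile over the 7 libraries was closest to that of each duplicate were found among 8565 genes with means of at least 100 normalized reads, by the root mean square difference of log2 values after subtracting each gene's own mean. For Ran-like these were CG44271 (0.30), UQCR-6.4, a small subunit of respiratory complex III (0.34), and CG10950 (0.36), where the median gene was at 1.71 and Ran itself at 0.94. For Ntf-2r they were CG6664 (0.29), tzn (0.30) and Bsg, which encodes the membrane protein basigin (0.31), where the median gene was at 1.75 and Ntf-2 itself at 2.42. A gene with the same level in every library would lie at 0.83 from Ran-like and 0.87 from Ntf-2r. Each duplicate was nearer to such a flat profile than to the gene it was copied from. The median gene also lay farther away than a flat profile, so this does not set Ran or Ntf-2 apart from other genes. Without eRpL22 replicate 1, an alternative chosen after seeing the data, Ntf-2 was at 1.35 from Ntf-2r, with the median gene at 1.69 and a flat profile at 0.91, and Ran was at 0.76 from Ran-like, with the median gene at 1.55 and a flat profile at 0.72.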

How the data were processed

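RNA came from eRpL22-like or eRpL22 immunoprecipitates and was extracted with Trizol, then made into libraries (Kapa Hyper prep kit) for single reads of 50 bases, per the labels' protocols. Tools in the submitters' processing notes are DESeq2, STAR, cutadapt and Trim Galore. Their versions, the genome build, annotation, read counter and strand use: not given in the sources used here. Per the file headers, the deposited table gives the authors' log2 fold change, Wald statistic (a score), p-value, adjusted p-value and normalized expression, a signal, for 7 libraries, and 0 per-sample columns were left unused. Each deposited signal was a whole number of reads over a library factor (100% of values whole, relative tolerance 1e-06), and those reads were recovered.

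The main test was limma 3.58.1 (R 4.3.3) with trend on log2(normalized reads + 1), for 11174 genes whose mean reached 10, leaving out 877. All 8 nuclear import genes passed this minimum. edgeR 4.0.16 and DESeq2 1.42.0 on recovered reads, a pseudocount of 0.5, no minimum, library totals, quantile normalization, a replicate block and leaving out each library were alternatives. Ratios and sums used exact permutation tests. The model functions were run on simulated counts with large known changes and the same dispersion for every gene. That run checked the code and does not measure how well changes could be found at the spread seen here. Python 3.11.15 with numpy 2.4.6, pandas 2.3.3, scipy 1.17.1 and matplotlib 3.10.9 was used for the rest. A count of 0 allows up to 3 reads, or 2.24 to 4.49 normalized reads, and such floors and intervals cover counting error only. Levels per kilobase, which had been planned, were not computed, because no build ties gene lengths to the table.

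The 8 genes and all lists were chosen with earlier results of these data known. Of other transport genes, the text names from each list up to 3 past the threshold or else the 2 with the highest mean, and the 3 nearest profiles of each duplicate. Genes were matched by name or by identifier, and 7 of the 8 identifiers were in the table of current names. No sequence is shown.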

Additional observations from a re-analysis of the deposited data

Results flagged for a closer look

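Of 13 sets of 4 eRpL22-like values examined (8 genes and 5 ratios), 2 had a library far from the other 3, and chance gives about 1 in 20. Ran stood at 7100 normalized reads in eRpL22-like replicate 4, with a gap to the next library of 0.863 of the range, where the limit for 4 values is 0.829. Ntf-2r stood at 5505 normalized reads in eRpL22-like replicate 1, with a gap of 0.858 of the range. Both gaps were taken on normalized reads and not on log2 values. On the log2 scale Ntf-2r had 12.43, 9.70, 10.27 and 10.55 in eRpL22-like replicates 1 to 4, where its gap falls under the limit. Ran had 12.33, 12.29, 12.24 and 12.79 on that scale, where its gap stays just past the limit. The 5 ratios are made from the same 8 genes, so the 13 sets are not independent. The library with the high Ran value also had the highest share of muscle marker reads, whose part in this value was not tested. The 3 eRpL22 values of each gene were not examined in this way.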

How the results depend on the processing

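No alternative called any of the 8 nuclear import genes or of the 60 other transport genes, and the directions of Pen, Kap-alpha1, Kap-alpha3 and Fs(2)Ket held under all of them. Over all genes, quantile normalization called 1 gene, CG9920, named after its value was seen, and DESeq2 on the recovered reads called 172; the other alternatives called 0. Leaving out each library in turn gave log2 fold changes from -0.33 to -0.04 for Pen, -0.96 to -0.47 for Kap-alpha1, -0.90 to -0.20 for Kap-alpha3, 0.74 to 1.37 for Fs(2)Ket, -0.0571 to 0.20 for Ran, -0.022 to 1.14 for Ran-like, -0.11 to 2.84 for Ntf-2 and -0.37 to 0.54 for Ntf-2r. Differences of log2 ratios ranged from -0.0944 to 1.19 for Ran-like to Ran, -3.05 to 0.60 for Ntf-2r to Ntf-2, 0.25 to 0.90 for Pen to Kap-alpha1, -0.0399 to 0.84 for Pen to Kap-alpha3 and -0.40 to 0.26 for Kap-alpha1 to Kap-alpha3. With 1 library fewer, part of each range follows from the smaller number of values, and the cause of the rest was not tested.

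Deviations from the pulldown means correlated between -0.0232 and 0.0213 across genes over the 12 pairs of libraries, under the limit of 0.1 used for pairing. The 3 same-numbered pairs were at 0.0071, 0.0196 and 0.00995, and 2 of 3 eRpL22-like libraries matched their own number best. This check does not settle whether same-numbered libraries shared a batch. A replicate block turned the log2 fold change of Ran to -0.0546 and the Kap-alpha1 to Kap-alpha3 difference to 0.26, and it called 0 genes. Every gene but Ntf-2 had at least 644 reads in each library.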

Other observations

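Among the other nuclear transport genes, 3 nucleoporins were picked out after their values were seen. Rae1, which encodes an mRNA export factor of the pore, was the only one of the 60 whose libraries did not overlap, with 982.6, 977.5, 636.3 and 504.3 normalized reads in eRpL22-like replicates 1 to 4 and 58.3, 152 and 343 in eRpL22 replicates 1 to 3 (log2 fold change 2.35, limma adjusted p = 0.945, unadjusted p 0.0636). Nup160, a scaffold nucleoporin, had 4200, 1038, 3317 and 3165 normalized reads with eRpL22-like and 1793, 531 and 819 with eRpL22 (log2 fold change 1.50, limma adjusted p = 0.945, unadjusted p 0.0298). CG14215, now named Elys, whose product helps pores assemble on chromatin, had 185, 1222, 1701 and 556 normalized reads with eRpL22-like and 2262, 1481 and 2817 with eRpL22 (log2 fold change -1.63, limma adjusted p = 0.945, unadjusted p 0.0492). Over all genes tested, 5.14% did not overlap and 4.11% had an unadjusted p under 0.05.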
